A study of Homo sapiens with 6 samples.

Results

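BH3-only genes, 10 in all, are described here: the activators BCL2L11 (BIM), BBC3 (PUMA) and BID, the sensitizers BMF, PMAIP1 (NOXA), BAD, BIK and HRK, and the mitophagy receptors BNIP3 and BNIP3L (NIX). Members were all rows of the deposited table whose platform gene symbol was exactly 1 of these names, which gave 40 of 49293 probe sets and 10 of 18132 genes. Of the 40, BCL2L11 had 14, BNIP3L 6, BID and BMF 4 each, BIK 3, BBC3, PMAIP1, BAD and BNIP3 2 each and HRK 1. Probe sets of 1 gene measure overlapping transcripts and are not independent of each other. The cells were MDA-MB-231, and their RNA was hybridised to Affymetrix PrimeView arrays, which read transcripts near the 3′ end. MDA-MB-231 is an established triple-negative breast cancer line that carries a mutant p53. The groups were 3 arrays from cells given 5 µM SAHA (vorinostat, a hydroxamate inhibitor of zinc-dependent histone deacetylases) for 8 h and 3 arrays from cells given DMSO for 8 h. The comparison asks which transcripts differ with HDAC inhibition. Only 1 line, 1 dose and 1 time were analysed here, and the labels leave out whether each replicate came from its own culture. The p-values therefore measure only the spread between these arrays, which may be technical.

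BH3-only proteins start the mitochondrial pathway of apoptosis. They carry a short helix, the BH3 motif, that binds a groove on other BCL2 family proteins. The guardians, such as BCL-XL and MCL1, hold the effectors BAX and BAK in check. Activators among the BH3-only proteins can engage the effectors directly, while sensitizers occupy the guardians. BNIP3 and its relative NIX have atypical BH3 motifs and are known mainly as receptors that bring mitochondria to autophagosomes. HDAC inhibitors are known to kill tumour cells partly through this pathway, and BIM and BMF have been described as responsive genes in other cells.

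Pearson's r across all probe sets was 0.997 to 0.998 within groups and 0.968 to 0.970 between groups. The line's markers VIM, CD44, AXL, CAV1 and MSN had mean log2 values of 11.80 to 13.99, and ESR1, PGR, GATA3 and CDH1 of 3.33 to 6.05. The epithelial genes EPCAM, KRT8 and KRT18, listed as low in this line, were at 8.21, 10.35 and 11.80. PTPRC, CD3E, PECAM1 and LUM, markers of blood, endothelial and stromal cells, were at 2.82 to 5.04. CDKN1A, a gene that HDAC inhibitors commonly raise, was at 11.63 ± 0.03 with SAHA and 9.72 ± 0.01 with DMSO (SD, n = 3 each), a log2 fold change of 1.91. Both 3′ minus 5′ differences of control probe sets, a measure of RNA quality, separated the groups, in opposite directions. That of ACTB was 0.61 ± 0.06 with SAHA and 0.89 ± 0.16 with DMSO, and that of GAPDH was 0.063 ± 0.020 with SAHA and 0.029 ± 0.019 with DMSO (SD, n = 3 each). Each had a two-sided exact permutation p = 0.1, the smallest possible with 3 against 3, and 0.2 after adjustment over 4 array controls. All values below are log2 expression values as deposited, and fold changes are SAHA minus DMSO with limma's moderated standard error.

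With SAHA, transcripts of most BH3-only genes were higher, with BID the exception. BNIP3L and BCL2L11 rose by more than 2-fold in their brightest probe sets, BBC3 and BIK by 1.87-fold and 1.82-fold, and BNIP3, BAD and PMAIP1 by 1.23-fold to 1.33-fold. BID was 2.19-fold lower. BNIP3 passed in 1 of its 2 probe sets, the brighter, which is shared by similar transcripts. The brightest probe sets of BNIP3L, BID, BAD and BIK are shared in this way too. Without shared probe sets, these genes had log2 fold changes of 1.07, -0.96, 0.31 and 0.52, and each still passed. BMF passed in 2 of its 4 probe sets but not in the brightest, and HRK did not pass. In a bulk culture, a change in the cells that carry a transcript and a change in the transcript per cell cannot be told apart. In limma's test with Benjamini-Hochberg adjustment over all 49293 probe sets, 26 member probe sets were higher and 4 lower at an adjusted p under 0.05, and 10 did not pass. Over all probe sets, 22.2% were higher and 24.1% lower, 46.4% in all. A change of at least 2-fold was seen in 7 member probe sets upwards and 3 downwards, against 4.96% and 4.14% of all probe sets. Those upwards were the 6 of BNIP3L, a pair of them with identical values, and the brightest of BCL2L11. Those downwards were all of BID, so the large changes came from few genes. By gene, taking the brightest probe set of each, 7 were higher, 1 lower and 2 did not pass, where over all genes 24.6% were higher and 23.8% lower, 48.3% in all. The median log2 fold change was 0.39 over the 10 genes and -0.01 over all genes.

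Bright probe sets were called more often than dim ones in the whole table, and among the members. Of 25 member probe sets with a mean log2 value of 6 or more, 22 were called in either direction, against 68.6% of all such probe sets. Of 15 dimmer ones, 8 were called, against 21.4% of all. The SAHA and DMSO arrays did not overlap in 31 member probe sets, and in 54.4% of all probe sets. Since RMA equalizes the arrays, a shift of most transcripts one way cannot be seen. Centred on poly-A spike-ins, which raises every fold change by 0.18, 69.4% of the called probe sets of the whole table were higher, against 47.9% as deposited. The 30 called member probe sets kept their direction and their call under this scaling and when centred on ribosomal protein genes.

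**Figure D1:**
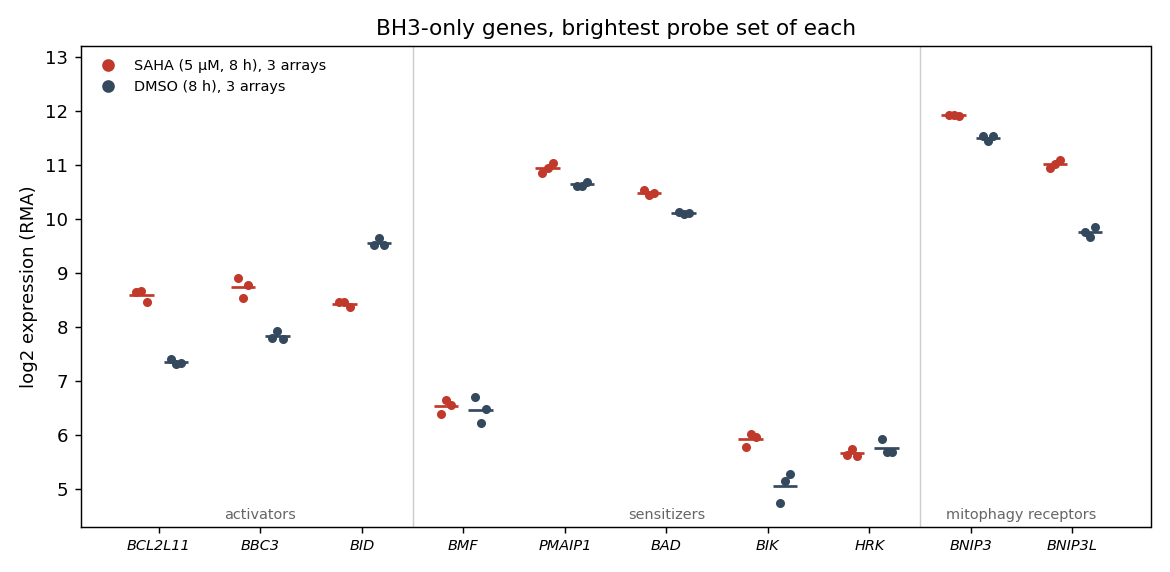
Log2 expression (vertical axis) of the brightest probe set of each of the 10 BH3-only genes. Points are single arrays and lines are group means, with SAHA to the left of DMSO. The groups do not overlap in 8 genes, where 54.4% of all probe sets, dim ones included, do not overlap. BID is the 1 gene called lower, and in BMF and HRK the groups overlap.

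**Figure D2:**
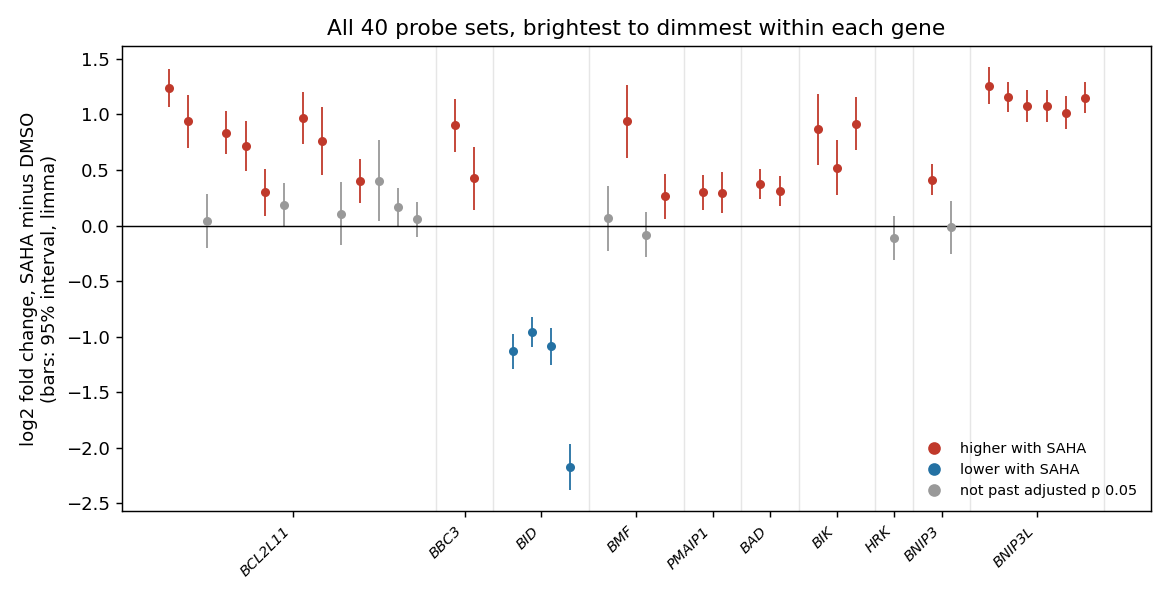
Log2 fold change, SAHA minus DMSO, of all 40 probe sets, ordered from brightest to dimmest within each gene. Bars are 95% intervals from limma, red marks 26 probe sets called higher, blue 4 called lower and grey 10 that did not pass.

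Promoter sequence was read for 8 of the 10 genes, all but BIK and BNIP3L, from RefSeq (GRCh38.p14). It was searched on both strands for GGGCGG (the GC box bound by SP1), CCAAT (bound by NF-Y), ACGTG (the core of the hypoxia response element) and GTAAACA (the core of the FOXO and other forkhead sites). In the 250 bases before the start, GGGCGG was present in 42.6% of the 35116 promoters listed, CCAAT in 32.0%, ACGTG in 18.5% and GTAAACA in 2.98%. Shown are BCL2L11, the largest rise among these 8, BNIP3, a textbook hypoxia target, and BID, the gene that was lower. Capitals mark every match. BCL2L11 is given at chr2:111120664-111120913 (plus strand), BNIP3 at chr10:131981924-131982173 (minus strand) and BID, at the outermost of its 5 listed starts, at chr22:17774666-17774915 (minus strand), each read 5′ to 3′ towards the start.
BCL2L11: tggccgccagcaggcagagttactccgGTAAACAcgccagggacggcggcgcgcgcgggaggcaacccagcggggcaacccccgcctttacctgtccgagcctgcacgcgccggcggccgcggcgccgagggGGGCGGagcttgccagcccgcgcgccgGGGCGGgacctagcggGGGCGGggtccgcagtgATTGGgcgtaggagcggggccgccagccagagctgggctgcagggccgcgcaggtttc
BNIP3: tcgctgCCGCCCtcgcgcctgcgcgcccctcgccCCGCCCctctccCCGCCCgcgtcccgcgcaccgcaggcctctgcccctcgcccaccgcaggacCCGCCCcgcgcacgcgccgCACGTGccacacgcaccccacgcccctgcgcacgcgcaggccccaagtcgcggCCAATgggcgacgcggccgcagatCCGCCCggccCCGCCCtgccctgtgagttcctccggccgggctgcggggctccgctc
BID: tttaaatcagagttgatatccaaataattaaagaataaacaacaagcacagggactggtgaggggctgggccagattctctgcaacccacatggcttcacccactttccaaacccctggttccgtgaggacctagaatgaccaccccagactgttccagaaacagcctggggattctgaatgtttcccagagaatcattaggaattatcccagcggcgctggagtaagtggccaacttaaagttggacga

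The BCL2L11 window held 3 GGGCGG, 1 CCAAT and 1 GTAAACA match, the last at 223 to 217 bases before the start. It was the 1 window of the 8 with GTAAACA. The BNIP3 window held 6 GGGCGG matches, 1 CCAAT and a CACGTG, which reads as ACGTG on both strands, at 134 to 129 bases before the start. The BID window, at the outermost of its 5 listed starts, held none of the 4 motifs. Other listed starts of BID, and of BMF and BAD with 2 each, were not searched. GGGCGG was also found 4 times for PMAIP1, 2 times for HRK and once each for BMF and BAD. The BMF, BAD and BBC3 windows each held 1 CCAAT, and the BBC3 window also held a CACGTG. A match here is a run of letters and no evidence of binding.

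Among the activators, BCL2L11 encodes BIM, which is made as several splice forms and binds all guardians. Its brightest probe set was at 8.65, 8.67 and 8.46 in the SAHA arrays, against 7.41, 7.32 and 7.34 in the DMSO arrays. The 3 SAHA values lay more than 1 log2 unit above the highest DMSO value. The log2 fold change was 1.24 ± 0.07 (adjusted p = 5.55e-06 over all probe sets), or 2.35-fold.

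The 14 probe sets of BCL2L11 did not move together. In all, 8 rose and 6 did not pass, with log2 fold changes from 0.04 to 1.24 and a median of 0.40. The second brightest rose by 0.94 ± 0.10. The third brightest, at 6.76, 7.16 and 7.0 with SAHA and 7.02, 6.86 and 6.92 with DMSO, overlapped between groups and was at 0.04 ± 0.11 (95% interval -0.20 to 0.28). That interval lies below the change of the brightest probe set, and the difference between the 2 changes was 1.19, the groups not overlapping (two-sided exact permutation p = 0.1, the smallest possible, and 0.143 after adjustment over 20 such differences). The brightest probe set exceeded 10 of the other 13 in this way. These pairs were tested because the probe sets of BCL2L11 had different calls in the same arrays, so the tests add no independent support. The changes did not follow the order of level. The eighth brightest, at 6.20, 6.07 and 6.10 with SAHA and 5.02, 5.37 and 5.06 with DMSO, rose by 0.97 ± 0.10, while the seventh was at 0.18 ± 0.08 and did not pass. The call of the sixth brightest (0.30 ± 0.09, adjusted p = 0.0282) was lost in 10 of the 19 other settings run, including those without DMSO replicate 2 (0.22), without SAHA replicate 2 (0.23) and without SAHA replicate 3 (0.31).

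BBC3 encodes PUMA, a target of p53 that can also be switched on by FOXO proteins. Its brighter probe set was at 8.90, 8.53 and 8.77 with SAHA, against 7.79, 7.93 and 7.78 with DMSO, a log2 fold change of 0.90 ± 0.10 (adjusted p = 0.000153). Its dimmer one was at 5.93, 6.27 and 6.21 with SAHA and 5.93, 5.63 and 5.57 with DMSO. Here the lowest SAHA value and the highest DMSO value were nearly equal, and the change was 0.42 ± 0.12 (adjusted p = 0.0211). Of the 19 other settings run, 8 lost that call, including those without DMSO replicate 2 (0.38) or 3 (0.36) and without SAHA replicate 2 (0.36) or 3 (0.39).

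BID, which caspase 8 cleaves into an active fragment and which so links death receptors to mitochondria, was the member that fell. Its brightest probe set was at 8.45, 8.46 and 8.37 with SAHA, against 9.52, 9.65 and 9.51 with DMSO. All SAHA values were more than 1 log2 unit under the lowest DMSO value, and the log2 fold change was -1.13 ± 0.07 (adjusted p = 4.95e-06). The next 2 probe sets gave -0.96 ± 0.06 and -1.09 ± 0.07.

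The dimmest BID probe set fell further. It was at 6.58, 6.38 and 6.70 with SAHA and 8.79, 8.69 and 8.70 with DMSO, a log2 fold change of -2.17 ± 0.09 (adjusted p = 1.07e-06), or 4.51-fold lower. The drop was larger than that of the brightest probe set by 1.04 log2 units, with no overlap between groups (two-sided exact permutation p = 0.1, the smallest possible, and 0.143 after adjustment). The change of the brightest minus that of the second brightest was -0.17, also without overlap and with the same p and adjusted p. The p-value therefore does not grade the size of these differences. All 4 BID calls held in every other setting in which they were tested. The table does not say which transcripts each probe set detects.

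**Figure D3:**
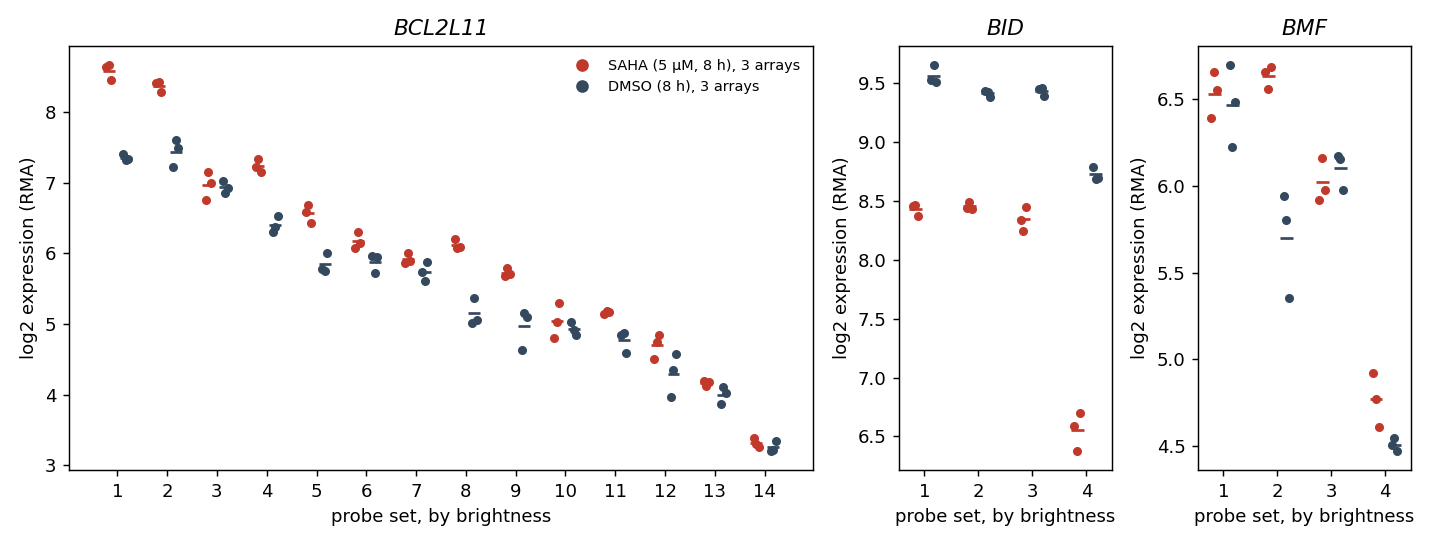
Log2 expression in single arrays for each probe set of BCL2L11, BID and BMF, from brightest to dimmest, with SAHA to the left of DMSO and lines at the group means. BCL2L11 and BMF hold separated and overlapping probe sets side by side, and all 4 BID probe sets are lower with SAHA.

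Among the sensitizers, BMF, which is tethered to the cytoskeleton through a dynein light chain until it is released, was not uniform. The brightest probe set was at 6.39, 6.66 and 6.55 with SAHA and 6.70, 6.22 and 6.49 with DMSO, overlapping, at 0.06 ± 0.13 (95% interval -0.23 to 0.36). The second brightest was at 6.66, 6.56 and 6.69 with SAHA, against 5.94, 5.80 and 5.35 with DMSO. These did not overlap, and the log2 fold change was 0.94 ± 0.14 (adjusted p = 0.000814), or 1.91-fold. The third was at -0.08 ± 0.09 and did not pass. The dimmest was at 0.26 ± 0.09 (adjusted p = 0.0373), a call that 12 of the 17 other settings run did not keep, including those without each array in turn except SAHA replicate 3 (0.19 to 0.28 in those that lost it). The brightest and second brightest differed by 0.87 log2 units in their change, the groups not overlapping (two-sided exact permutation p = 0.1, the smallest possible, and 0.143 after adjustment). Read by its brightest probe set BMF did not pass, and by the mean of its probe sets it was at 0.30 (adjusted p = 0.00877).

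PMAIP1 encodes NOXA, which binds MCL1 and speeds its breakdown. It was at 10.85, 10.93 and 11.03 with SAHA and 10.61, 10.61 and 10.69 with DMSO, a log2 fold change of 0.30 ± 0.07 (adjusted p = 0.00702). The groups did not overlap but lay close. Its other probe set gave 0.30 ± 0.08 (adjusted p = 0.0157), and its call was lost without SAHA replicate 3 (0.27, adjusted p = 0.0575). With the ACTB difference as a covariate neither probe set passed, at 0.24 and 0.34.

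BAD, which 14-3-3 proteins hold in the cytosol when survival kinases phosphorylate it, was at 10.53, 10.44 and 10.47 with SAHA and 10.12, 10.10 and 10.10 with DMSO. The rise was small and larger than the spread between arrays, at 0.37 ± 0.06 (adjusted p = 0.000899), and 0.31 ± 0.06 in the second probe set.

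BIK, a BH3-only protein of the endoplasmic reticulum, was dim in all 3 of its probe sets and rose in each. The brightest was at 5.77, 6.03 and 5.97 with SAHA and 4.75, 5.14 and 5.28 with DMSO, at 0.87 ± 0.14 (adjusted p = 0.00111). The dimmest was at 5.23, 4.91 and 4.90 with SAHA and 4.19, 4.04 and 4.05 with DMSO, at 0.92 ± 0.10 (adjusted p = 0.000137), and the other at 0.52 ± 0.11. With the ACTB difference as a covariate the brightest was at 0.40 (adjusted p = 0.0548) and the second at 0.31 (adjusted p = 0.227), and the dimmest still passed.

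HRK, a BH3-only protein best known from neurons, was at 5.62, 5.74 and 5.62 with SAHA and 5.93, 5.69 and 5.68 with DMSO. The groups overlapped, and the difference was -0.11 ± 0.08 (95% interval -0.31 to 0.09), positive when centred on poly-A spike-ins (0.07) or ribosomal protein genes (0.02).

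Both mitophagy receptors rose. BNIP3L, which encodes NIX, was at 10.95, 11.01 and 11.10 with SAHA, against 9.76, 9.67 and 9.84 with DMSO in its brightest probe set. The SAHA arrays all lay more than 1 log2 unit above the DMSO arrays, and the log2 fold change was 1.26 ± 0.07 (adjusted p = 4.27e-06), or 2.39-fold. Its 6 probe sets gave 1.02 to 1.26, and all 6 were called in every other setting in which they were tested. A pair of the 6 held identical values on all 6 arrays and so count as 1 measurement. BNIP3 was at 11.91, 11.92 and 11.91 with SAHA and 11.53, 11.44 and 11.54 with DMSO, a log2 fold change of 0.41 ± 0.06 (adjusted p = 0.000611). That probe set is shared by similar transcripts. The other one of BNIP3, at a mean log2 value of 4.70, was at -0.02 ± 0.10 (95% interval -0.25 to 0.22), and the difference of 0.43 between their changes had an exact permutation p = 0.1, the smallest possible (0.143 after adjustment).

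The ACTB difference moved with the groups. With that difference as a covariate, 18 of the 26 rises and all 4 falls still passed, and each of the 30 kept its direction. The brightest probe sets of BCL2L11, BBC3, BNIP3 and BNIP3L and the second brightest of BMF were among those that passed.

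Most of the guardians, the proteins that BH3-only proteins bind, were lower. Of 6 guardian genes, 4 fell, 1 rose and 1 did not pass, with a median log2 fold change of -0.90, where over all genes the median was -0.01 and 23.8% were lower. BCL2L1, which encodes BCL-XL, was at 8.90, 8.68 and 8.81 with SAHA, against 10.28, 10.23 and 10.25 with DMSO, a log2 fold change of -1.46 ± 0.07 (limma adjusted p = 1.61e-06 over all genes). BCL2 was at 6.03, 6.17 and 5.87 with SAHA and 7.29, 7.50 and 7.33 with DMSO, at -1.35 ± 0.09, and BCL2A1 at -1.20 ± 0.10. BCL2L2, which encodes BCL-W, was at -0.61 ± 0.06. In these 4 genes no SAHA array reached the DMSO arrays, but not all probe sets of each passed (2 of 3 for BCL2L1, 5 of 6 for BCL2, 1 of 2 for BCL2A1 and 1 of 3 for BCL2L2). MCL1, the partner of NOXA, was at 12.18, 12.15 and 12.13 with SAHA and 11.86, 11.88 and 11.85 with DMSO and rose by 0.29 ± 0.05, and 3 of its 6 probe sets passed, with changes from -0.03 to 0.31. BCL2L10 was at -0.11 ± 0.09 and did not pass. With the mean of each gene's probe sets in place of the brightest, 4 guardians were again lower and 1 higher, with a median of -0.52.

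The effectors, which form the pores of the outer membrane, were split. BAK1 rose by 0.70 ± 0.05, with arrays at 8.82, 8.78 and 8.76 with SAHA and 8.15, 8.06 and 8.06 with DMSO, and 4 of its 5 probe sets passed. BAX was at -0.29 ± 0.08 (adjusted p = 0.0211), at 9.16, 9.11 and 9.18 with SAHA and 9.33, 9.37 and 9.61 with DMSO. Its call was lost without SAHA replicate 1, without SAHA replicate 2 and under the centring on ribosomal protein genes or poly-A spike-ins. BOK, at -0.06 ± 0.07, did not pass in its brightest probe set, and 1 of its 3 was called lower, with changes from -0.28 to -0.06 over the 3. With the mean of each gene's probe sets, 1 effector was higher and 2 were lower.

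**Figure D4:**
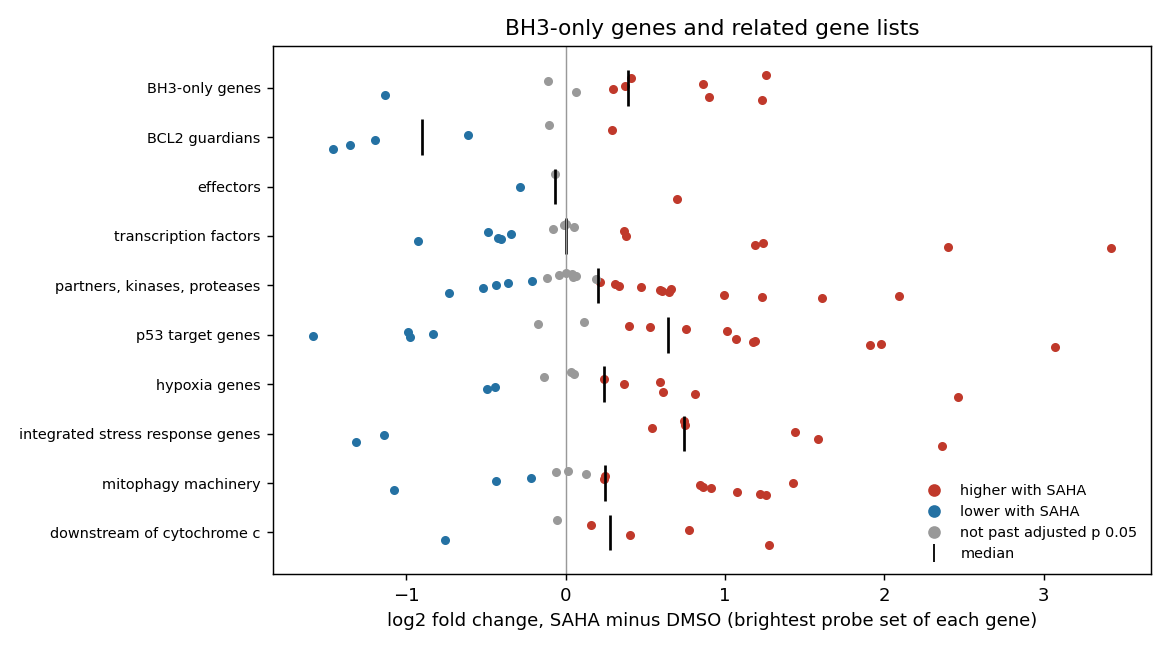
Log2 fold change, SAHA minus DMSO, of the 10 BH3-only genes and of 9 related gene lists, each gene by its brightest probe set. Red and blue mark genes called higher and lower, grey genes that did not pass, and black lines the medians, which run from -0.90 for the guardians to 0.75 for the integrated stress response genes.

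Transcription factors known to act on BH3-only genes changed in both directions. Of 15 measured, 6 rose, 5 fell and 4 did not pass, with a median of 0.00, where over all genes 24.6% were higher and 23.8% lower. EPAS1, the hypoxia-inducible factor HIF-2α, rose by 3.42 ± 0.06, to 10.05 ± 0.02 with SAHA against 6.63 ± 0.06 with DMSO (SD, n = 3 each). That was the brightest of 2 EPAS1 probe sets, and the other rose by 0.995. FOXO1, of the forkhead family that can drive BCL2L11 and BBC3, rose by 2.40 ± 0.07, to 8.46 ± 0.08 with SAHA against 6.07 ± 0.08 with DMSO (SD, n = 3 each). Of the 4 FOXO1 probe sets 3 rose, and the changes ran from -0.00 to 2.40. Its relative FOXO3 fell by 0.42 on the log2 scale. HIF1A was at 0.00 ± 0.06 and did not pass. EGR1 rose by 1.19 ± 0.06, and in 5 of its 6 probe sets, and SNAI2, a repressor of BBC3, by 1.24 ± 0.08. SMAD3, which mediates TGF-beta signals, was at -0.92 ± 0.08 and the stress factor ATF4 at -0.41 ± 0.05, both lower. Centred on poly-A spike-ins, 6 of the 15 factors were higher and 2 lower, and on ribosomal protein genes 7 and 5.

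Genes for proteins that hold, modify or cleave BH3-only proteins changed in both directions. Of 24 measured, 12 rose, 5 fell and 7 did not pass, with a median of 0.20, beside 24.6% of all genes higher and 23.8% lower. DYNLL2, the dynein light chain that tethers BMF, rose by 1.23 ± 0.06, to 10.46 ± 0.05 with SAHA against 9.23 ± 0.06 with DMSO (SD, n = 3 each), and DYNLL1, the one that tethers BIM, by 0.34 ± 0.06. Of the kinases that phosphorylate BAD, PIM2 rose by 2.09 ± 0.10, PIM1 by 1.61 ± 0.08 and RPS6KA1 by 1.0 ± 0.05, while AKT2 was lower at -0.52 ± 0.06, and in 10 of its 12 probe sets. YWHAH, a 14-3-3 protein, was at -0.73 ± 0.06. CASP8, which cleaves BID, was lower too, at -0.43 ± 0.09. Centred on poly-A spike-ins, 13 of the 24 genes were higher and 2 lower, and on ribosomal protein genes 15 and 3.

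Of 16 measured targets of p53, 10 rose and 4 fell, with a median of 0.64. The share of all genes was 24.6% higher and 23.8% lower. TP53INP1 rose by 3.07 ± 0.06, SESN2 by 1.98 ± 0.05 and TNFRSF10B, a TRAIL receptor, by 1.18 ± 0.05. The death receptor FAS was at -1.58 ± 0.11 and the nuclease AEN at -0.98 ± 0.07, both lower, and MDM2, the classical feedback target, fell by 0.99 on the log2 scale. TP53INP1 rose in 1 of its 2 probe sets and was at -0.07 in the other.

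Of 11 measured hypoxia genes, the company in which BNIP3 is usually found, 6 rose, 2 fell and 3 did not pass, with a median of 0.24. Among all genes, 24.6% were higher and 23.8% lower. NDRG1 rose by 2.46 ± 0.06 in its brightest probe set and in all 6. KDM3A rose by 0.61 ± 0.06 and EGLN3, which was dim, by 0.81 ± 0.08. Only 1 of the 3 EGLN3 probe sets passed, with changes from 0.01 to 0.81. EGLN1, an oxygen-sensing hydroxylase, was at -0.49 ± 0.05 and P4HA1, of collagen hydroxylation, at -0.44 ± 0.06. Centred on poly-A spike-ins, 6 of the 11 hypoxia genes were higher and 1 lower. VEGFA (-0.13 ± 0.09), PDK1 (0.05 ± 0.05) and LDHA (0.03 ± 0.06) did not pass.

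Of 15 measured genes of mitophagy, the process BNIP3 and NIX serve, 9 rose, 3 fell and 3 did not pass, with a median of 0.25, against 24.6% of all genes higher and 23.8% lower. The receptors OPTN and CALCOCO2 rose by 1.26 ± 0.06 and 1.22 ± 0.06. MAP1LC3B, of the LC3 family that BNIP3 and NIX bind, rose by 1.08 ± 0.05, to 12.04 ± 0.01 with SAHA against 10.96 ± 0.04 with DMSO (SD, n = 3 each). Another receptor, FUNDC1, was lower at -1.08 ± 0.06, and so was PHB2 at -0.44 ± 0.06. With each array left out in turn, 8 or 9 of the 15 genes passed as higher and 2 or 3 as lower. Centred on poly-A spike-ins, 10 were higher and 1 lower.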

How the data were processed

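The authors deposited 1 log2 expression value for each probe set and array, made with RMA per the submitters' processing notes. The RMA software is not given in the sources used here. Per the labels' protocols, total RNA was amplified and biotin-labelled with a 3′ in vitro transcription kit. Of 49395 rows, 102 array controls were left out. The platform annotation named 1 gene for 44988 probe sets and supplied all symbols. Probe sets ending in _x_at or _s_at are called shared by similar transcripts. Genome positions of probe sets are not given, because no build is named for them.

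Differences were tested with limma 3.58.1 (R 4.3.3), two-sided, over all 6 arrays with Benjamini-Hochberg adjustment over all probe sets, or over all genes for the gene counts and lists, with a gene represented by its brightest probe set. No filter was used. Differences between probe sets of 1 gene were compared over arrays with exact permutation tests. These were run for members whose probe sets had different calls in the same arrays, and for BID. They describe the differences and add no independent support. The members, lists and alternatives were chosen with earlier results of these data known, and the text names all members, the guardians, the effectors and, in each list, the 4 genes with the smallest p and up to 2 called against most of the list. Other list members named (FOXO3, HIF1A, DYNLL1, CASP8, MDM2, VEGFA, PDK1, LDHA, CYCS) were chosen after their values were seen. The fits were tested on simulated data. Alternatives were other scalings, filters, thresholds and limma options, the ACTB covariate, a replicate block and leaving out each array. With 3 arrays per group, the number of arrays limits the precision. Listed genes without a probe set naming only them were not analysed here. Figures were drawn with matplotlib 3.10.9.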

Additional observations from a re-analysis of the deposited data

How the results depend on the processing

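The count of 26 higher member probe sets was 16 without _x_at and _s_at probe sets, where 27 were tested, and 16 with treat at 1.2-fold. It ran from 18 with the ACTB covariate to 29 when centred on poly-A spike-ins or ribosomal protein genes in the other settings, and the count of 4 lower ones was 3 without _x_at and _s_at probe sets and 4 otherwise. Leaving out each array gave 23 to 26 higher. The called member genes were 5 to 8 higher and 1 lower throughout. Over the related lists, 27 genes were lower, and 17 when centred on poly-A spike-ins. Leaving out each array gave 51 to 53 higher and 25 to 27 lower genes in the lists. Arrays with the same replicate number did not deviate together (r of -0.10, -0.08 and -0.03). With 3 arrays per group this cannot show whether the numbers pair the samples. With the replicate block 26 probe sets were higher and 4 lower.

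Apart from BNIP3 at the level of the gene, values that changed sign were not past the threshold as deposited. HRK was at 0.019 centred on ribosomal protein genes, 0.073 on poly-A spike-ins and 0.036 with the ACTB covariate. The brightest BMF probe set ran from -0.059 without DMSO replicate 2 to 0.18 as arrays were left out in turn, and the third BMF probe set was at 0.045 and 0.099 centred on ribosomal protein genes and poly-A spike-ins. The dim BNIP3 probe set was at 0.11 and 0.16 under these scalings and ran from -0.088 to 0.089 as arrays were left out. It represents BNIP3 (-0.017) as the second brightest and without _x_at and _s_at probe sets, so the gene's call then fails. Of BCL2L11, the third brightest ran from -0.052 without SAHA replicate 2 to 0.15, and the tenth from -0.020 without SAHA replicate 3 to 0.23. The twelfth and the fourteenth were at -0.096 and -0.035 with the ACTB covariate. The cause was not tested. With 3 arrays in each group, the exact tests between probe sets could not go below 0.1.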

Other observations

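Genes of the integrated stress response, which can raise PMAIP1 and BBC3, all changed: of 8 measured, 6 rose and 2 fell, with a median log2 fold change of 0.75, where over all genes 48.3% changed. DDIT4, an inhibitor of mTORC1, rose by 2.36 ± 0.09, to 9.32 ± 0.12 with SAHA against 6.96 ± 0.14 with DMSO (SD, n = 3 each). ATF3 rose by 1.58 ± 0.08 in its brightest probe set, and 4 of its 7 passed, with changes from 0.15 to 1.58. TRIB3 and PPP1R15A, also targets of this response, were lower at -1.31 ± 0.06 and -1.14 ± 0.07.

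Downstream of cytochrome c release, 4 of 6 measured genes rose, 1 fell and 1 did not pass, with a median of 0.28, where over all genes 24.6% were higher and 23.8% lower. CASP9, the initiator caspase of the apoptosome, rose by 1.27 ± 0.07 and its scaffold APAF1 by 0.77 ± 0.12. DIABLO, which counters caspase inhibitors, rose by 0.40 ± 0.05. XIAP, such an inhibitor, was lower at -0.76 ± 0.05. CYCS, cytochrome c itself, rose by 0.16 ± 0.06 (limma adjusted p = 0.0490), to 12.93 ± 0.06 with SAHA against 12.77 ± 0.03 with DMSO (SD, n = 3 each). With any 1 of the 6 arrays left out, 3 of the 6 genes passed as higher.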
